A study of Danio rerio with 36 samples.

Results

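The outer coat of the wild-type zebrafish eye, sclera with choroid, was compared with the retina at 1 month after fertilization across all genes of the deposited table. The comparison used 6 of the 36 libraries of the series, 3 of wild-type sclera with choroid and 3 of wild-type retina, with 31916 gene identifiers measured in each. The same tissues of lrp2-/- fish at 1 month, 3 libraries of sclera with choroid and 3 of retina, served as a repeat in separate libraries, and 3 wild-type libraries of retinal pigment epithelium (RPE) gave further levels. Wild-type fish carry the label ZDR in the sample titles. The labels put choroid and sclera in 1 sample, so no value separates them, and the labels used here name neither the lrp2 allele nor the number of fish in a library. Dissected eyes went into RNAlater, and total RNA was taken with Trizol for a low-input Illumina preparation. Because nothing says that the 3 libraries of a group came from separate fish, each p-value measures only the spread between libraries, which may be technical. The series title concerns LRP2 on RPE cells, BMP activity and eye size, and the comparison asks which transcripts separate the wall of the eye from its neural layer.

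The sclera is the fibrous wall of the eye, and in teleosts it contains a ring of cartilage and small bones called ossicles. It continues into the transparent cornea in front, and the choroid on its inner face carries blood vessels and pigment cells. The retina holds rod and cone photoreceptors, the bipolar, horizontal, amacrine and ganglion neurons that pass on their signals, and Müller glia. Levels below are TPM, a length-corrected share of all transcripts, given for libraries 11, 12 and 13 in that order. Fold changes are log2 of sclera with choroid over retina from counts in edgeR, with their standard error (SE). A gene counted as called where its adjusted p was below 0.05, and was past 4-fold when edgeR's glmTreat showed a change above 4-fold at that threshold. A value alone in parentheses after a gene is its log2 fold change. Symbols are spelled as the name table gives them, with the Ensembl identifier where several genes share one. In these bulk libraries, fewer cells of a type and less RNA per cell cannot be told apart.

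Total counts were 23070243 to 23800956 in sclera with choroid and 17819957 to 22896148 in retina, with 24985 to 25479 and 24471 to 24895 genes at 1 count or more. Retina library 12 stood apart. Its 56 lens genes summed to 57291 TPM, against 370 and 430 TPM in retina libraries 11 and 13 and 246 to 359 TPM in sclera with choroid. Among the libraries of sclera with choroid, number 12 held the most cone RNA, 2322 TPM against 429 and 1382 TPM in numbers 11 and 13, and the most myelin RNA, 10405 TPM against 4994 and 2492 TPM. Leaving out retina library 12 moved the fold changes of 31 of the 223 genes chosen by the naming rule by over 1.5 times, 30 of them upward, and leaving out sclera library 12 moved 36, all downward. List medians that rest on either library, and the fold changes given with their errors, also stand without it below where they moved so far. The TPM and count scales also differ: over 14007 genes with a mean of 10 TPM or more in either tissue, the count-based log2 fold change exceeded the log2 ratio of mean TPM by a median of 0.57, with quartiles of 0.55 and 0.59. A gene with equal TPM in both tissues therefore stands near 0.57 on the scale of the fold changes.

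Marker levels bore on the label of the outer coat. Genes of corneal and surface epithelium, a tissue that the label does not name, made up 13.2% of the TPM of sclera with choroid and 0.27% of that of retina. Genes of fibroblast matrix summed to 21961, 24228 and 24799 TPM in sclera with choroid, against 1331, 1642 and 1723 TPM in retina. Choroid-type markers were present but not abundant. Endothelial genes summed to 816, 991 and 478 TPM in sclera with choroid and 307, 312 and 341 TPM in retina, and the RPE libraries held 3204, 4763 and 3090 TPM. Melanosome genes summed to 351, 350 and 397 TPM in sclera with choroid and 433, 409 and 404 TPM in retina, against 11768 to 13860 TPM in RPE. Of the retina sum, trpm1b and TRPM1 averaged 101 and 61.2 TPM, against 37.5 and 6.15 TPM in sclera with choroid. TRPM1 also acts outside pigment cells, so the sums do not rank sclera with choroid and retina by pigment-cell RNA. Genes of red blood cells summed to 327 to 914 TPM in sclera with choroid and 770 to 807 TPM in retina, where the carbonic anhydrase gene cahz alone averaged 567 TPM, and to 16742 to 20913 TPM in RPE. The part that dissection played in this order was not tested.

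**Figure D1:**
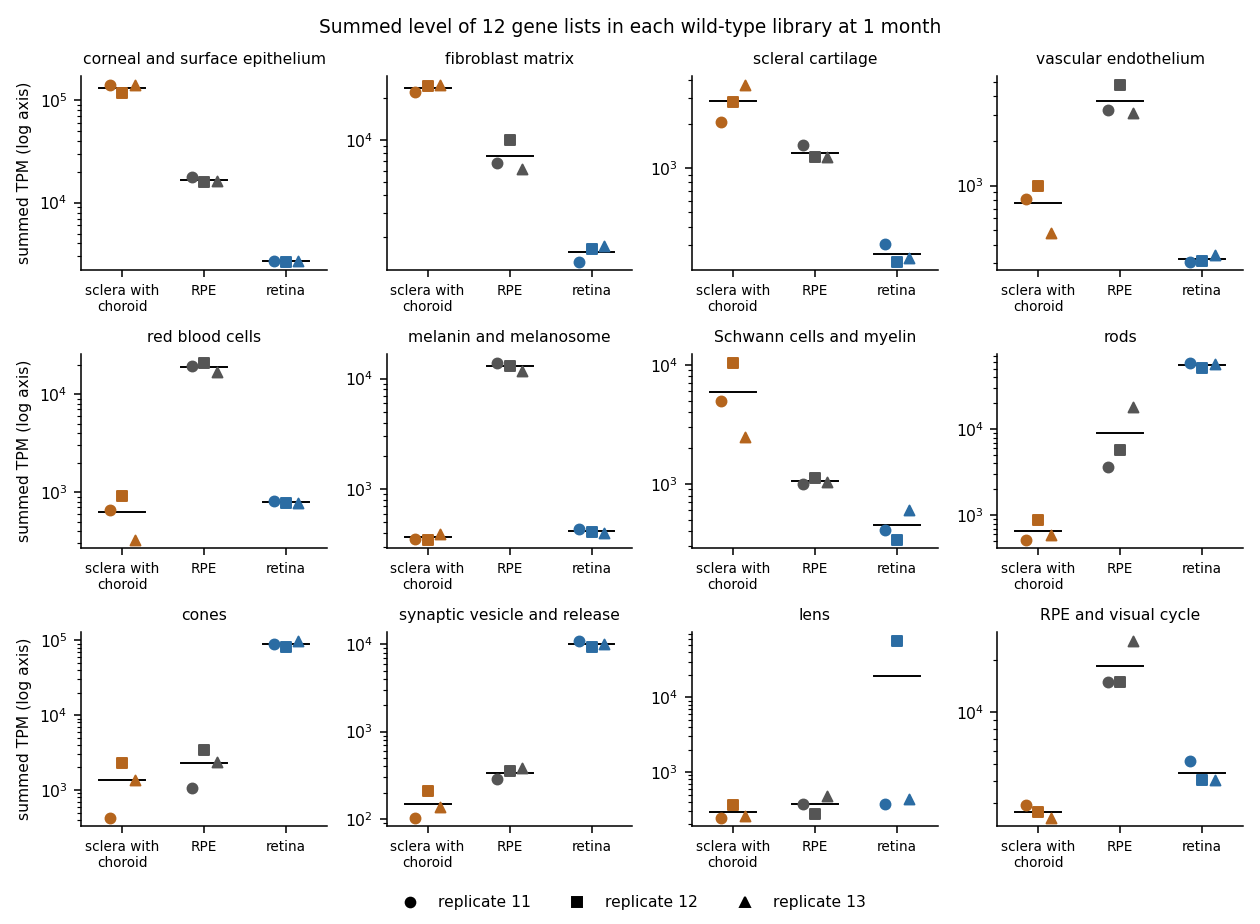
Summed TPM of 12 gene lists in each wild-type library (log axis); points are libraries, shaped by replicate number, and bars are means of 3. Epithelial and matrix genes were highest in sclera with choroid, endothelial, blood and melanosome genes in RPE, and photoreceptor and synaptic genes in retina, while lens RNA stood at 57291 TPM in retina library 12 alone.

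Most genes differed between the tissues. Of 22010 genes tested, 8471 (38.5%) were higher and 7901 (35.9%) lower in sclera with choroid, 74.4% in all. Past 4-fold, 4647 genes (21.1%) were higher and 3142 (14.3%) lower. The median over all genes was 0.01 on the log2 scale. On log2(TPM + 1) the median was -0.47, and limma called 6776 higher and 11096 lower, or 2279 higher and 2827 lower past 4-fold. The share of higher genes therefore depends on the scaling, and directions below are relative to all genes. Changes of 128-fold or more were called for 910 genes higher and 253 lower in sclera with choroid. No count was seen in any of the 3 libraries of sclera with choroid for 51 tested genes, and none in the 3 retina libraries for 167.

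The most abundant transcripts gave each tissue its profile. In sclera with choroid, 2 keratins of surface epithelium led. krt91 stood at 37876, 34673 and 38061 TPM in sclera with choroid, against 28.6, 186 and 62.8 TPM in retina. krt5 stood at 34442, 30450 and 41483 TPM in sclera with choroid, against 26.7, 113 and 52.94 TPM in retina. The tissues stood far apart for both genes, and retina library 12 was the highest of its group. Their log2 fold changes were 9.15 ± 0.90 and 9.64 ± 0.74 (SE; edgeR adjusted p = 6.9e-05 and 1.9e-05), or 10.26 and 10.41 without retina library 12. Next came si:dkey-238c7.12, the intermediate-filament or surface genes icn and krt97, the cytoskeletal actin actb2, the translation factor eef1a1l1 and scinla, a gelsolin-family gene. The loci si:dkey-193p11.2 and si:dkey-248g15.3, which have no descriptive symbol, completed the 10 at 8228 ± 1400 and 8103 ± 908 TPM in sclera with choroid and 20.2 ± 19.7 and 17.8 ± 11.6 TPM in retina (SD, n = 3 each). The smallest changes among the 10 were those of actb2 and eef1a1l1, at 2.78 and 2.52.

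In retina, the 10 most abundant transcripts were 8 of phototransduction or its regulation, creatine kinase CKB (ENSDARG00000043257) and gatd3l. The phosphodiesterase subunit gene pde6ha stood at 80.5, 789 and 516 TPM in sclera with choroid and 30102, 23979 and 29078 TPM in retina. It was lower in every library of sclera with choroid than in any retina library, and sclera library 12 was the highest of its group. The log2 fold change was -5.38 ± 0.78 (SE; edgeR adjusted p = 0.00055).

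Ranked by size of change among genes with a mean of 100 TPM or more in the higher tissue, 503 genes were past 4-fold higher and 525 lower. The 12 largest rises were si:ch211-188p14.5, the keratins krt92 and krt5, si:dkey-56e3.2, COL10A1 (ENSDARG00000054753), cxl34b.11, zgc:165423, DLX3, ccl27b, col1a1a, mala.2 and myhc4. Of si:ch211-188p14.5, the retina libraries held 0 counts, and with 3 counts over the group as a floor the fold is at least 960. The chemokine gene ccl27b had 2345 counts in sclera with choroid and 3 in retina, a ratio of 929 with a 95% exact interval of 318 to 4510 for counting error alone. krt92 was uneven within its tissue, at 168, 5.44 and 254 TPM in sclera with choroid against 0, 0.39 and 0 TPM in retina. The 12 largest falls were genes of neurons and photoreceptors. Among them were the kinase activator CDK5R1 (ENSDARG00000045087), cabp4, the cone opsins opn1mw4, opn1mw3 and opn1lw1, INA (ENSDARG00000053248), the glutamate transporter SLC17A7 (ENSDARG00000016480), the glutamate receptor GRIA2 (ENSDARG00000070173), sagb and calb2b, which was at -7.92. Reads of near-identical neighbours such as opn1mw3 and opn1mw4, or of the clustered keratins, may have been divided among copies, so their single values are uncertain.

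**Figure D2:**
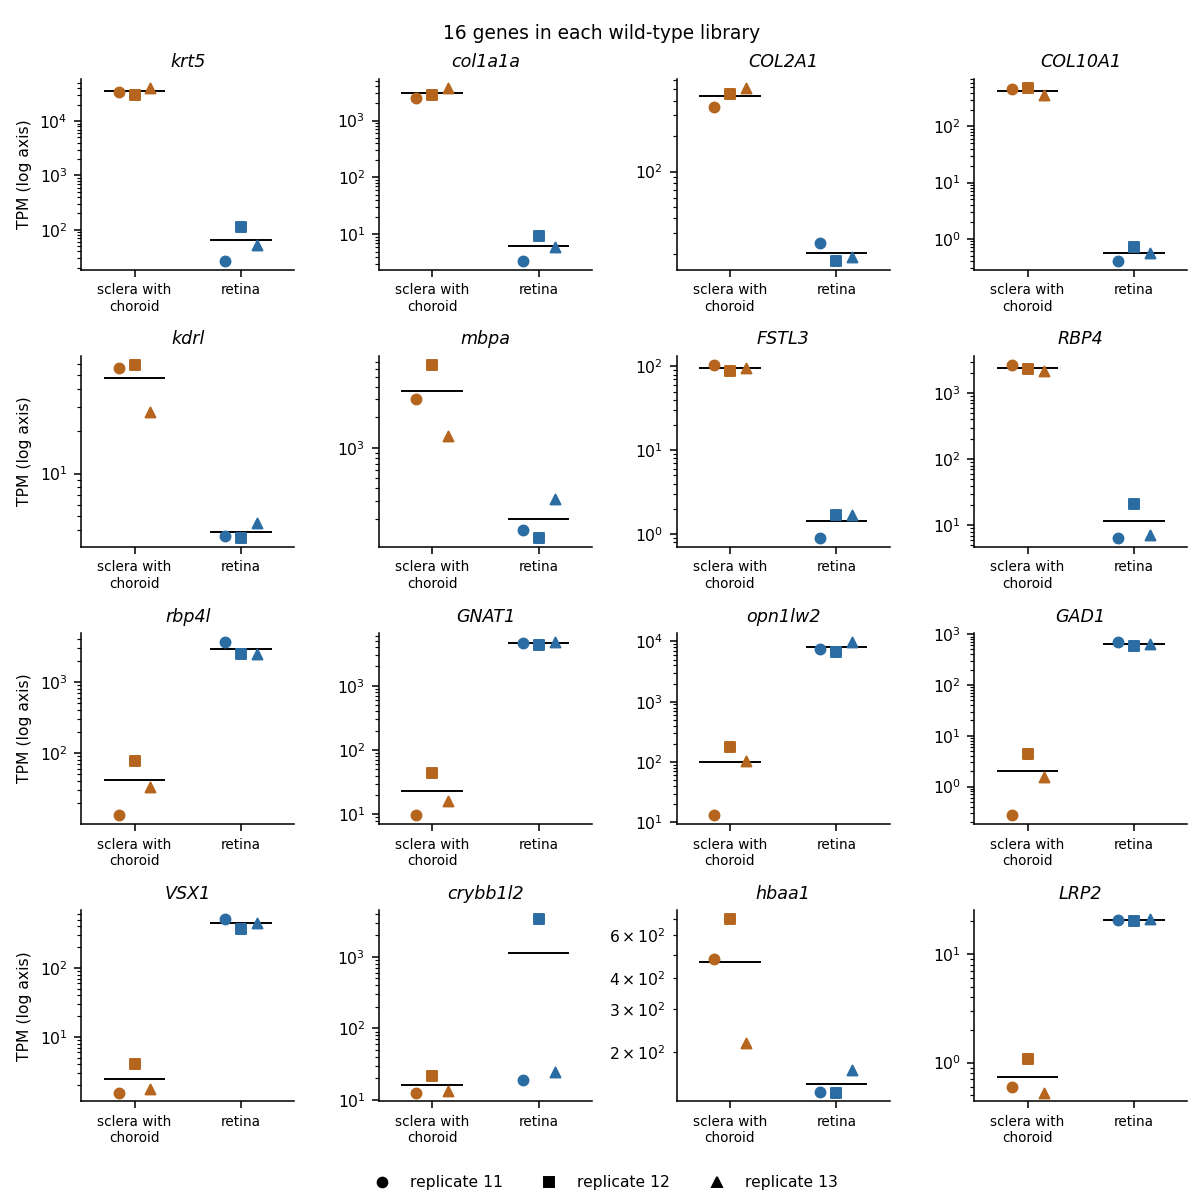
TPM of 16 genes in each wild-type library (log axes that differ between panels); points are libraries, shaped by replicate number, and bars are means of 3. Structural, vascular and myelin genes stood higher in sclera with choroid and photoreceptor and neuronal genes lower, while crybb1l2 was high in retina library 12 alone.

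Surface epithelium gave the list with the largest median change. Of its 69 tested genes, 64 were past 4-fold higher and 1 lower in sclera with choroid, with a median of 8.04. The summed level was 49.4-fold higher than in retina. After krt91 and krt5, its most abundant members were icn at 13633 ± 1013 TPM in sclera with choroid and 51.1 ± 27.1 TPM in retina, krt97 at 6853 ± 787 and 15.2 ± 13.5 TPM, and krt4 at 6744 ± 991 and 17.6 ± 11.6 TPM (SD, n = 3 each). Genes that build the cell contacts of epithelia were among them: the cadherin cdh1 (8.86), epcam (9.04), the desmosomal desmoplakin DSP (ENSDARG00000022309, 7.79) and plakophilin pkp3a (9.28). So were regulators of epithelial fate, TP63, a factor of basal epithelium (7.74), KLF4 (7.96), grhl3 (9.13), ELF3 (7.58) and the splicing regulators ESRP1 (8.89) and ESRP2 (9.09).  PAX6, a factor of cornea, lens and retina alike, was not past 4-fold at either of its 2 genes (-0.99 and -1.08), and ppdpfa was past it in the other direction (-3.94).

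Of 35 tight junction genes tested, 17 were past 4-fold higher and 1 lower in sclera with choroid, with a median of 2.76. The claudin gene cldnb was at 968, 740.1 and 1443 TPM in sclera with choroid and 0.57, 6.23 and 1.23 TPM in retina. cldni was at 864, 830.5 and 867 TPM in sclera with choroid and 1.16, 3.78 and 2.45 TPM in retina. Neither showed any overlap between the tissues, and both were highest among retina libraries in number 12. cldna (8.36), cldn1 (8.34), the junctional adhesion gene f11r.1 (7.88) and the occludins oclna (8.36) and oclnb (8.76) followed. The scaffold genes TJP1 (-0.03) and tjp1b (-0.27) were not past 4-fold, whereas tjp3 was at 9.26. CLDN2, a pore-forming claudin, was the member past 4-fold lower, at 0.93 ± 0.63 TPM in sclera with choroid and 21.9 ± 2.15 TPM in retina (SD, n = 3 each).

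Basement membrane genes were higher in sclera with choroid at 28 of 39 past 4-fold, with 1 lower and a median of 3.82. Components that anchor stratified epithelium led. The hemidesmosomal collagen col17a1a stood at 624, 731 and 845 TPM in sclera with choroid and 1.88, 3.99 and 2.94 TPM in retina, and its paralogue col17a1b at 632, 586 and 606 TPM in sclera with choroid and 0.54, 2.36 and 1.18 TPM in retina. No library of 1 tissue came near the other for either gene. The laminin chain lamb3 (7.59) and the anchoring-fibril collagen col7a1 (5.74) were also past 4-fold, as were COL8A2 (7.502), a collagen of Descemet's membrane under the cornea, and the general sheet collagens COL4A1 (5.24) and COL4A2 (5.06). AGRN (0.75), HSPG2 (1.31) and LAMA1 (0.28) were not past 4-fold. FREM2 (ENSDARG00000076856) was the 1 member past it in the other direction (-4.88), while its paralogue ENSDARG00000102626 was at 2.82.

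Fibroblast matrix, the fabric of the sclera itself, was higher in sclera with choroid at 52 of 59 genes past 4-fold and lower at 0, with a median of 6.05 and a summed level 15.1-fold higher. SPARC, a collagen-binding protein, stood at 4903, 5265 and 4677 TPM in sclera with choroid and 239, 238 and 189 TPM in retina. The type I collagen gene col1a1a stood at 2494, 2787 and 3791 TPM in sclera with choroid and 3.41, 9.20 and 6.13 TPM in retina. Both were far apart between tissues, and col1a1a was highest in sclera library 13 and in retina library 12. Log2 fold changes were 5.11 ± 0.18 and 9.64 ± 0.66 (SE; edgeR adjusted p = 9.9e-07 and 1.1e-05), and that of col1a1a was 10.38 without retina library 12. COL1A1 (9.002), COL1A2 (9.30) and periostin, POSTN (ENSDARG00000104267, 9.16), completed the 5 most abundant members, at 2943 ± 504, 3068 ± 394 and 2816 ± 205 TPM in sclera with choroid and 8.36 ± 3.67, 7.02 ± 3.93 and 7.27 ± 6.54 TPM in retina (SD, n = 3 each). The collagen cross-linking enzymes LOXL1 (2.54), LOXL2 (3.62) and LOXL3 (ENSDARG00000076306, 4.84) and the elastic-fibre genes mfap2 (4.18), mfap5 (3.84) and FBN2 (4.58) were past 4-fold too. Keratocan, KERA, a proteoglycan named for the cornea, went the other way at 89.0, 169 and 112 TPM in sclera with choroid and 764, 1025 and 1212 TPM in retina. It was called lower at -2.13 ± 0.22 (SE; edgeR adjusted p = 9.1e-05) and was not past 4-fold.

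Cartilage genes were higher in sclera with choroid at 23 of 30 past 4-fold and lower at 2, with a median of 4.92. COL2A1 (ENSDARG00000011407), the main collagen of cartilage, stood at 354, 454 and 519 TPM in sclera with choroid and 24.8, 17.3 and 18.9 TPM in retina. Matrilin, MATN1, stood at 126, 187 and 333 TPM in sclera with choroid and 0.62, 1.03 and 0.53 TPM in retina. Sclera library 13 was the highest and library 11 the lowest for both, and the summed list was 2059, 2806 and 3678 TPM in sclera with choroid, against 303, 231 and 243 TPM in retina. COL11A1 (6.71), the cartilage-matrix gene ucmaa (7.06), the aggrecans acana (5.85) and acanb (9.18), and the second COL2A1 gene (ENSDARG00000069093, 4.32) were past 4-fold. The chondrocyte regulators differed among themselves. Both SOX9 genes were past 4-fold higher (ENSDARG00000043923, 2.77, and ENSDARG00000003293, 2.58), SOX6 was not called (0.32), and SOX5 was past 4-fold lower, at 9.12, 11.0 and 8.77 TPM in sclera with choroid and 107, 77.1 and 89.0 TPM in retina. The other member past 4-fold lower was susd5 (-4.78).

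Genes of bone and ossicle followed, with 11 of 14 past 4-fold higher, 1 lower and a median of 5.40. COL10A1 (ENSDARG00000054753), a collagen of hypertrophic cartilage and, in fish, of bone, stood at 459.7, 495 and 358 TPM in sclera with choroid and 0.40, 0.72 and 0.55 TPM in retina. Osteocalcin, bglap, stood at 134, 84.7 and 39.5 TPM in sclera with choroid and 0.79, 0 and 1.34 TPM in retina. The tissues did not overlap for either gene, and bglap was highest in library 11 and lowest in library 13 of sclera with choroid. Osteopontin, spp1 (9.36), the osteocyte inhibitor SOST (5.15) and the bone regulators runx2b (5.13), RUNX2 (4.27) and SP7 (2.85) were past 4-fold. SOST was higher still in RPE, at 431 ± 128 TPM against 49.1 ± 12.5 TPM in sclera with choroid (SD, n = 3 each). Its level is therefore not particular to the outer coat, whereas runx2b averaged 14.8 TPM in sclera with choroid and 3.35 TPM in RPE. Alkaline phosphatase, ALPL, was called but not past 4-fold, at 237 ± 9.51 TPM in sclera with choroid and 144 ± 19.2 TPM in retina (SD, n = 3 each).

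Proteases and inhibitors that turn over matrix were past 4-fold higher at 29 of 49 genes and lower at 5, with a median of 3.48. MMP2, a gelatinase, stood at 397, 519.9 and 416 TPM in sclera with choroid and 9.0, 11.2 and 7.32 TPM in retina. The collagen-degrading cathepsin CTSK stood at 190, 205 and 169 TPM in sclera with choroid and 1.89, 2.41 and 1.98 TPM in retina. Sclera library 12 was the highest for both, and no libraries overlapped between tissues. mmp30 (9.11), both MMP14 genes (ENSDARG00000002235, 6.99, and ENSDARG00000008388, 5.62) and both TIMP2 genes, inhibitors of MMPs (ENSDARG00000061226, 3.54, and ENSDARG00000075261, 3.33), were past 4-fold as well. The 5 lower members were MMP16, MMP24 (-4.99), mmp25a, ADAMTS18 (-3.31) and prss56 (-4.99), a protease gene associated with eye size in mouse and human. For MMP16, 2 counts were seen in sclera with choroid and 1140 in retina, a ratio of retina over sclera with choroid of 479 (95% exact interval 132 to 3963, counting error alone). For mmp25a, 2 counts stood against 110, a ratio of 46.3 (12.5 to 387). prss56 was at 0.06, 0.09 and 0.60 TPM in sclera with choroid and 6.07, 9.02 and 8.96 TPM in retina.

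Transcription factors of periocular mesenchyme, the neural crest and mesoderm tissue that forms sclera, choroid and corneal stroma, were past 4-fold higher at 48 of 53 tested genes and lower at 0, with a median of 5.99. OSR1 stood at 95.9, 81.9 and 99.5 TPM in sclera with choroid and 0.41, 0.67 and 0.45 TPM in retina. FOXQ1 stood at 259, 149.5 and 233 TPM in sclera with choroid and 0.45, 1.16 and 0 TPM in retina, and DLX3 at 202, 108 and 146 TPM in sclera with choroid and 0.06, 0.37 and 0.35 TPM in retina. FOXQ1 and DLX3 were lowest in sclera library 12, and no gene of the 3 overlapped between tissues. These bulk libraries also hold surface epithelium. Whether it or mesenchyme gave the RNA of FOXQ1 and DLX3 cannot be told here. Genes tied to anterior-segment disease in human were in the group, with foxc1b (7.96), FOXC1 (4.82) and both LMX1B genes (ENSDARG00000068365, 6.400, and ENSDARG00000104815, 6.68) past 4-fold. Also past 4-fold were foxf2a and foxf2b (4.69 and 5.24), both PRRX1 genes (ENSDARG00000033971, 7.74, and ENSDARG00000042027, 7.65), twist1a (6.03) and snai2 (5.99). pitx3, a lens gene as well, was at 83.1, 95.7 and 93.1 TPM in sclera with choroid and 0.33, 4.00 and 0.39 TPM in retina, and its highest retina level was in library 12. TFAP2A (-0.38) was not called, and TFAP2B (-0.59) and foxd1 (-1.23) were called lower without being past 4-fold.

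Vascular endothelium was higher in sclera with choroid at 21 of 31 genes past 4-fold and lower at 0, with a median of 3.53. The VEGF receptor gene kdrl stood at 56.8, 59.5 and 27.4 TPM in sclera with choroid and 3.60, 3.47 and 4.43 TPM in retina, and averaged 375 ± 85.4 TPM in RPE. plvapb, a protein of fenestrated capillaries, stood at 64.9, 94.6 and 57.8 TPM in sclera with choroid and 3.63, 3.40 and 2.92 TPM in retina, and averaged 192 ± 48.2 TPM in RPE (SD, n = 3 each). Library 13 of sclera with choroid was the lowest for both and still above every retina library. sox18 (2.78), clec14a (3.53), the lymphatic receptor FLT4 (5.89) and lyve1a (4.86) were past 4-fold. cdh5, the endothelial cadherin, differed less, at 36.7 ± 16.6 TPM in sclera with choroid and 23.0 ± 0.56 TPM in retina (1.23), and CLDN5 (ENSDARG00000014059), a tight junction gene of barrier vessels, was called without being past 4-fold (2.47). mmrn2a (-2.15) and aplnra (-0.74) were called lower.

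Mural and smooth muscle genes were past 4-fold higher at 14 of 21 and lower at 1, with a median of 3.40. The contractile gene acta2 stood at 155, 164 and 101 TPM in sclera with choroid and 6.30, 4.50 and 4.44 TPM in retina. RGS5, a pericyte gene, stood at 407, 421 and 179 TPM in sclera with choroid and 52.0, 47.0 and 41.2 TPM in retina, and averaged 2345 ± 438 TPM in RPE (SD, n = 3). Both were lowest in library 13 of sclera with choroid, as the endothelial genes were. TAGLN (ENSDARG00000033466, 7.16) and MYL9 (ENSDARG00000038123, 4.79) were past 4-fold, and smtnb was past it in the other direction (-2.70).

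Among red blood cell genes, 3 of 18 were past 4-fold higher and 2 lower, near the 21.1% and 14.3% over all genes, and the median was 1.64. All the other tested members were called higher below that size, except FECH, which was called lower (-1.27). Over all genes, 38.5% were called higher and 35.9% lower. The alpha globin hbaa1 stood at 478, 699 and 217 TPM in sclera with choroid and 137, 136 and 168 TPM in retina, against 17086 ± 2000 TPM in RPE (SD, n = 3). Its log2 fold change between the first 2 tissues was 2.22 ± 0.37 (SE; edgeR adjusted p = 0.0012), called and not past 4-fold. The ammonium transporter RHAG (6.07), gata1a and epb41b were the 3 higher. The carbonic anhydrase cahz, which Müller glia also express, was past 4-fold lower at 10.7, 24.2 and 7.54 TPM in sclera with choroid and 602, 571 and 529 TPM in retina, and SPTB was the other (-2.46).

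Pigment cell genes were read in 2 lists. Melanosome genes were past 4-fold higher at 5 of 23 and lower at 3, close to the background in both directions, with a median of 1.38. The pigment enzyme TYRP1 (ENSDARG00000056151) stood at 77.3, 80.8 and 83.7 TPM in sclera with choroid and 70.4, 70.6 and 60.0 TPM in retina, and averaged 4132 TPM in RPE. pmelb, a melanosome fibre gene, was not called (-0.19; edgeR adjusted p = 0.59), nor were DCT (0.02) and MITF (ENSDARG00000037833, -0.18). At any size, however, most tested members were called higher, against 38.5% of all genes. Below the 4-fold test these included TYR (2.35), SLC45A2 (2.11), both TYRP1 genes (1.85 and 0.83) and pmela (1.26), while trpm1b was called lower (-2.13). The other MITF gene (ENSDARG00000003732, 2.53) was also called higher below that test. It averaged 1.76 TPM in sclera with choroid, 0.54 TPM in retina and 35.8 TPM in RPE. Genes past 4-fold higher were MLPH, MC1R, RAB27A, slc7a11 and RAB32 (ENSDARG00000029036), and those lower were TRPM1 and both SLC24A4 genes, which also act outside pigment cells. Genes of iridophores and xanthophores, the reflecting and yellow pigment cells, were past 4-fold higher at 10 of 24 and lower at 1 (median 2.36). The higher ones included apoda.1 (5.86), FHL2 (ENSDARG00000042018, 6.66) and GPNMB (5.87). XDH of the same list went the other way, at -3.04, or -4.06 without sclera library 12.

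In the immune lists more genes were past 4-fold higher than lower in the outer coat, beside 21.1% and 14.3% of all genes. Of 32 genes of macrophages and microglia, 14 were past 4-fold higher and 0 lower, with a median of 2.37. The antigen-presentation gene cd74a stood at 1064, 1084 and 839 TPM in sclera with choroid and 21.4, 16.3 and 11.9 TPM in retina. apoeb, a lipid carrier used as a marker of microglia, stood at 6625, 4922 and 4992 TPM in sclera with choroid and 1004, 858 and 968 TPM in retina. Neither overlapped between tissues, and apoeb was also abundant in retina, at a log2 fold change of 3.12 ± 0.20 (SE; edgeR adjusted p = 7.1e-06). Lymphocyte genes were past 4-fold higher at 7 of 14 and lower at 1 (median 3.33), led by GATA3 (5.64) and cd28 (4.64) at 19.2 and 15.7 TPM in sclera with choroid on average, and without retina library 12 the median was 2.51 over the 17 genes then tested. RAG1, a recombinase of developing lymphocytes, was the lower one (-4.10), and lck was called higher below the 4-fold test (3.11) at a mean of 0.76 TPM in sclera with choroid. Only those 14 of the 27 lymphocyte genes measured held enough counts to be tested. Among the higher, cd4-1, cd37 and ighm averaged 0.99, 1.59 and 1.12 TPM in sclera with choroid, with 3, 1 and 0 counts in retina. Such genes could enter the test only through sclera with choroid, so the lymphocyte counts and median do not measure lymphocyte RNA evenly. In RPE, GATA3 and cd28 averaged 20.5 and 24.4 TPM, and cd4-1, cd37 and ighm 0.57, 1.40 and 3.42 TPM. The levels of GATA3 and cd28 are therefore not particular to the outer coat. Neutrophil genes were past 4-fold higher at 4 of 7, with MMP9 (6.69), nccrp1 (4.42) and CEBPA (4.21), whereas lyz (2.24) and npsn (2.35) were called below that size. CEBPA averaged 34.7 TPM in sclera with choroid and 129 TPM in RPE.

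Skeletal muscle genes, which the muscles that move the eye would carry, were past 4-fold higher at 46 of 62 and lower at 1, with a median of 5.33. The sarcomeric actin actc1b stood at 418, 463 and 1032 TPM in sclera with choroid and 1.96, 3.74 and 1.41 TPM in retina. The fast-muscle calcium buffer pvalb4 stood at 320.1, 355 and 413 TPM in sclera with choroid and 0.57, 0.81 and 0.91 TPM in retina. Library 13 of sclera with choroid was highest for both, and the list summed to 3166, 3328 and 5539 TPM in that tissue, against 541 to 610 TPM in retina. TNNT3 (ENSDARG00000068457, 9.13), ckmb (8.99) and ENO3 (3.097) were past 4-fold. Glycogen phosphorylase was divided, with PYGM ENSDARG00000055518 higher (8.03) and PYGM ENSDARG00000013317 lower (-4.62).

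Schwann cell and myelin genes were past 4-fold higher at 10 of 17 and lower at 0, with a median of 3.49, or 2.81 without sclera library 12. Myelin basic protein, mbpa, stood at 3002, 6573 and 1317 TPM in sclera with choroid and 156, 129 and 314 TPM in retina. Within sclera with choroid, library 12 was highest and library 13 lowest, and no library overlapped with retina. pmp22a, a gene of peripheral myelin that other tissues also use, varied less among libraries, at 249, 269 and 228 TPM in sclera with choroid and 2.15, 3.15 and 1.37 TPM in retina. The Schwann cell regulator egr2a (7.87) was past 4-fold, and OLIG2, an oligodendrocyte factor, was not called (-1.14).

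**Figure D3:**
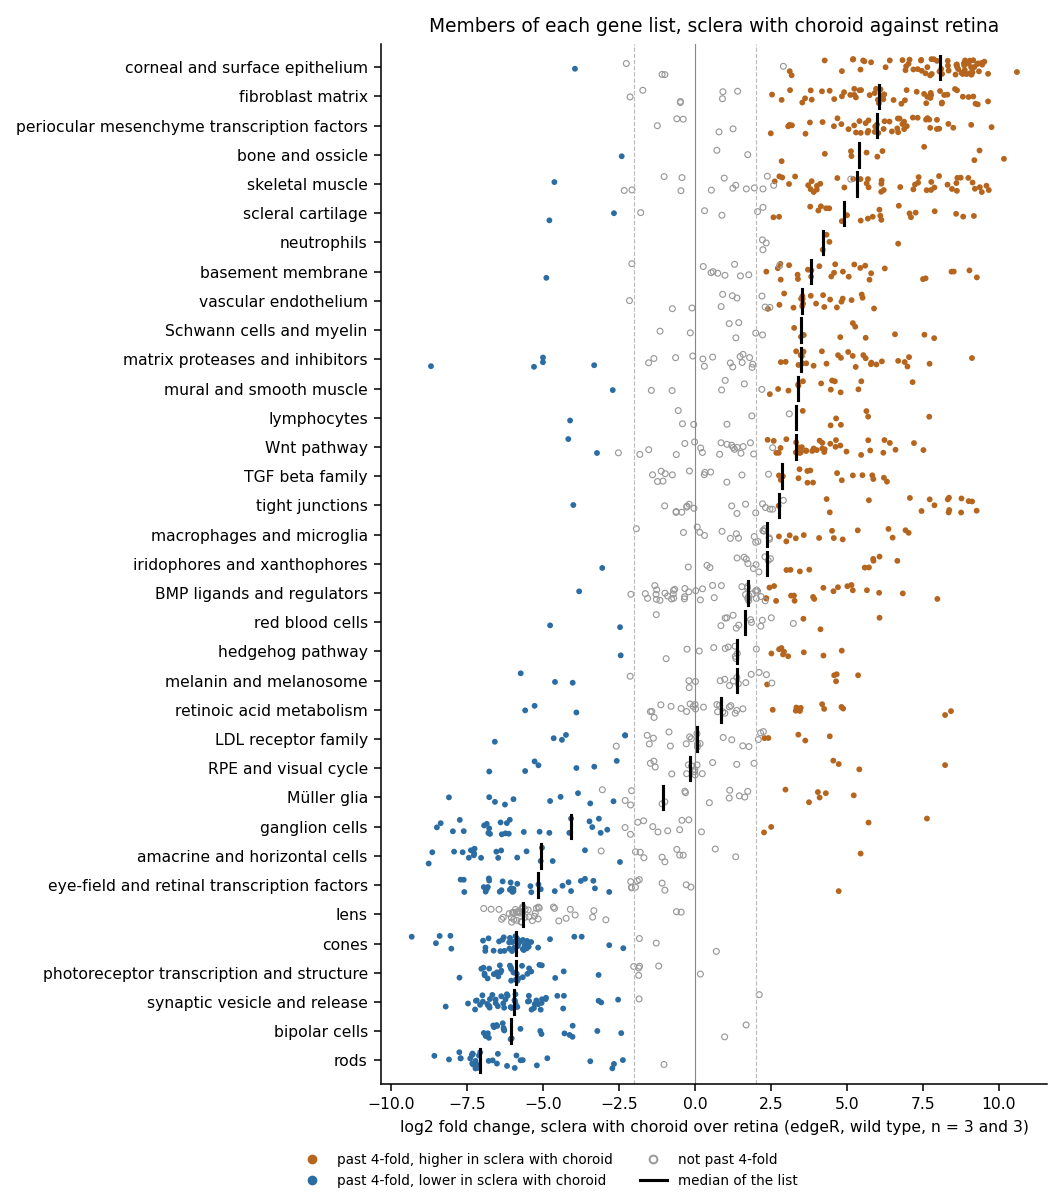
Log2 fold change of every tested member of 35 gene lists, sclera with choroid over retina; filled points passed the 4-fold test, open points did not, and black bars are list medians. Lists ran from a median of 8.04 for surface epithelium to -7.08 for rods, and the lens list stood at -5.66 with no member past the test, or at 0.14 without retina library 12.

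Photoreceptor genes were lower in sclera with choroid. Of 34 rod genes, 33 were past 4-fold lower and 0 higher, with a median of -7.08. Rod transducin, GNAT1, stood at 9.63, 43.7 and 16.2 TPM in sclera with choroid and 4613, 4307 and 4812 TPM in retina. The arrestin gene sagb stood at 2.88, 7.74 and 2.69 TPM in sclera with choroid and 2027, 1448 and 1494 TPM in retina. Neither gene overlapped between tissues, and library 12 was the highest in sclera with choroid. gnb1a, a G protein subunit that other cells also use, differed least among the 5 most abundant, at -2.37.

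Cone genes were past 4-fold lower at 45 of 48 and higher at 0, with a median of -5.86. The red opsin opn1lw2 stood at 13.0, 179 and 103 TPM in sclera with choroid and 7555, 6720 and 9833 TPM in retina. The blue opsin opn1sw2 stood at 11.9, 168 and 67.8 TPM in sclera with choroid and 6268, 6134 and 7597 TPM in retina. For both, sclera library 12 was the highest and library 11 the lowest, with a wide gap between them. Without sclera library 12 the median of cone genes was -6.61 and that of rod genes -7.75. The 8 cone opsins tested here were not equal in fold: opn1lw1, opn1mw3 and opn1mw4 stood at -8.01, -8.39 and -8.51, and opn1lw2, opn1mw1, opn1mw2, opn1sw2 and OPN1SW at -5.74, -5.93, -5.53, -5.83 and -5.24. The thyroid hormone receptor THRB (-2.35), which specifies red cones, and the UV-cone factors TBX2 of zebrafish (ENSDARG00000018025, -2.81, and ENSDARG00000006120, -1.82) differed less than the opsins. tmx3b was the 1 member called higher (0.71).

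Photoreceptor transcription factors and outer-segment structure genes were past 4-fold lower at 32 of 38, with a median of -5.87. The homeobox gene crx stood at 1.26, 9.52 and 5.83 TPM in sclera with choroid and 599, 461 and 570.1 TPM in retina. The adhesion gene rs1a, named for retinoschisis, stood at 1.58, 8.47 and 2.69 TPM in sclera with choroid and 860.1, 749 and 784 TPM in retina. NEUROD1 (-5.84), syt5a (-6.36) and PROM1 (ENSDARG00000034007, -6.04) were past 4-fold as well.

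Inner retinal neurons gave the same direction with exceptions. Bipolar cell genes were past 4-fold lower at 23 of 25 (median -6.06). VSX1, a bipolar factor, stood at 1.57, 4.00 and 1.74 TPM in sclera with choroid and 511, 363 and 450.4 TPM in retina. GNG13, a G protein subunit, stood at 7.30, 9.30 and 8.46 TPM in sclera with choroid and 401, 404 and 453 TPM in retina. The tissues stood well apart for both, and the 2 bipolar genes called higher were gng13a (1.69) and SCGN (0.98). Amacrine and horizontal cell genes were past 4-fold lower at 20 of 32 and higher at 1 (median -5.05, or -5.65 without sclera library 12). GAD1 (ENSDARG00000027419), the GABA-making enzyme, stood at 0.27, 4.31 and 1.54 TPM in sclera with choroid and 707, 589 and 649 TPM in retina. The acetylcholine enzyme CHAT (-7.63), tyrosine hydroxylase TH (-5.53) and the transporter SLC32A1 (-7.43) were past 4-fold lower. The parvalbumin gene pvalb7, which muscle also expresses, was past 4-fold higher (5.45), and TFAP2C, shared with surface epithelium, was called higher (1.34).

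Ganglion cell genes were past 4-fold lower at 26 of 41 and higher at 4, with a median of -4.07. The neurofilament gene INA (ENSDARG00000011862) stood at 1.40, 15.4 and 7.45 TPM in sclera with choroid and 822, 747 and 801 TPM in retina. The ganglion cell factors POU4F2 (-7.60) and POU4F3 (-8.36) and atoh7 (-6.76) were past 4-fold. The RNA-binding marker RBPMS2 was less apart, at 66.4, 86.5 and 31.9 TPM in sclera with choroid and 378, 372 and 385 TPM in retina for ENSDARG00000079578. The 4 higher were thy1, both IRX1 genes and PTPRF (ENSDARG00000005754). thy1, used as a ganglion cell marker in rodents, stood at 491, 317 and 403 TPM in sclera with choroid and 7.73, 12.1 and 14.2 TPM in retina, a log2 fold change of 5.71 ± 0.34 (SE; edgeR adjusted p = 5.5e-06).

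Of 30 Müller glia genes, 10 were past 4-fold lower and 6 higher, with a median of -1.03. Over all genes, 14.3% were lower and 21.1% higher, so the number of higher members was near that of genes at large. FABP7 (ENSDARG00000007697) stood at 146, 243 and 124 TPM in sclera with choroid and 1387, 1747 and 1666 TPM in retina. Glutamine synthetase, GLUL (ENSDARG00000099776), stood at 140, 251 and 235 TPM in sclera with choroid and 1590, 1376 and 1519 TPM in retina, while GLUL ENSDARG00000100003 was called higher (1.46). Among the lower were rlbp1a (-6.76), which binds retinal, the glutamate transporters SLC1A2 (ENSDARG00000102453, -6.24, and ENSDARG00000052138, -6.57) and GFAP (-4.41). The 6 higher were crlf1a (5.22), the caveolins CAV1 (4.31) and CAV2 (2.98), DKK3 (ENSDARG00000070683), SLC1A3 (ENSDARG00000104431) and S100B, genes that other cell types use as well.

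Synaptic vesicle and release genes were past 4-fold lower at 49 of 51 and higher at 0, with a median of -5.93 and a summed level 68.2-fold lower. SNAP25 (ENSDARG00000058117), a membrane-fusion protein, stood at 2.34, 22.8 and 9.34 TPM in sclera with choroid and 1572, 1430 and 1630 TPM in retina. Synaptophysin, sypb, stood at 0.60, 7.96 and 4.98 TPM in sclera with choroid and 768, 701 and 751 TPM in retina. Library 11 of sclera with choroid was the lowest and library 12 the highest for both, the order of the cone genes. CPLX4 (ENSDARG00000059978, -6.30), the ribbon-synapse complexin, and the vesicular glutamate transporter SLC17A7 (ENSDARG00000016480, -8.19) were past 4-fold, and nsfb was the 1 member called higher (2.12).

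Eye-field and retinal transcription factors were past 4-fold lower at 32 of 43 and higher at 1, with a median of -5.14, or -5.91 without sclera library 12. The retinal homeobox genes rx1 (-5.38), rx2 (-5.96) and rx3 (-6.36), SIX3 (ENSDARG00000054879, -5.41) and LHX2 (-5.96) were among them. The nasal factor foxg1b (-5.99) and the dorsal factor TBX5 (-7.58), which pattern the axes of the retina, were too. hmx1 (-0.28) and hmx4 (-0.13) were not called. PAX6 (ENSDARG00000103379) was called lower and not past 4-fold, at 130, 108 and 136 TPM in sclera with choroid and 422, 352 and 438 TPM in retina. The 2 otx2-type genes took opposite sides. OTX2 stood at 2.103 ± 0.06 TPM in sclera with choroid and 121 ± 8.66 TPM in retina, and otx2a at 16.9 ± 3.07 TPM in sclera with choroid and 0.91 ± 0.11 TPM in retina (SD, n = 3 each).

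Genes of RPE and the visual cycle, which regenerates the light-sensitive retinoid, were past 4-fold higher at 4 of 26 and lower at 7, with a median of -0.16. The shares over all genes were 21.1% and 14.3%, so higher members were no more frequent than among genes at large. The retinol carriers gave the widest split. RBP4 stood at 2696, 2316 and 2193 TPM in sclera with choroid and 6.38, 20.7 and 7.23 TPM in retina. rbp4l stood at 13.3, 78.6 and 33.7 TPM in sclera with choroid and 3691, 2488 and 2478 TPM in retina. No library of 1 tissue came near the other for either gene, with log2 fold changes of 8.23 ± 0.62 and -5.58 ± 0.64 (SE; edgeR adjusted p = 1.7e-05 and 0.00016). RBP4 was at 9.02 without retina library 12, and rbp4l at -6.36 without sclera library 12. The retinoid isomerase gene RPE65 was also uneven: ENSDARG00000094752 (5.41) and ENSDARG00000054420 (4.55) were past 4-fold higher, and ENSDARG00000007480 was not called (-0.21). CRABP1 (ENSDARG00000045926, -3.89), rlbp1a, dhrsx (-2.57) and RRH (-3.31) were past 4-fold lower.

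The values of lens genes rest on retina library 12. None of the 48 tested was past 4-fold, although the median was -5.66, and crybb1l3, crygm2d4 and crygm2d20 were called lower. crybb1l2 stood at 12.7, 21.8 and 13.4 TPM in sclera with choroid and 19.1, 3386 and 24.6 TPM in retina. Without retina library 12 the median of the list was 0.14. The near-identical crygm2 genes may share reads, so their single values are uncertain.

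BMP ligands bind paired receptors at the cell surface and act through SMAD proteins, and secreted inhibitors hold the ligands back. Of 61 BMP ligands, receptors, inhibitors and targets, 20 were past 4-fold higher and 1 lower in sclera with choroid, with a median of 1.74. The shares over all genes were 21.1% and 14.3%. Among ligands, BMP5 (6.06), BMP3 (5.01), bmp16 (4.70), BMP6 (3.93), BMP4 (3.28), GDF5 (3.26), GDF10 (ENSDARG00000095378, 4.56) and BMP2 (ENSDARG00000041430, 2.61) were past 4-fold higher. BMP4 stood at 13.8 ± 1.66 TPM in sclera with choroid and 2.08 ± 0.25 TPM in retina (SD, n = 3 each). Secreted inhibitors were also higher, with chrd (3.89), nog2 (5.66), SOST (5.15), SOSTDC1 (ENSDARG00000068892, 5.19), TWSG1 (3.16) and FST (ENSDARG00000057992, 2.45) past 4-fold. FSTL3, which binds activins and BMPs, stood at 105, 88.4 and 94.6 TPM in sclera with choroid and 0.89, 1.68 and 1.68 TPM in retina. BMP1 (ENSDARG00000028071), the protease that cleaves procollagen and chordin, stood at 50.8, 61.2 and 60.2 TPM in sclera with choroid and 17.5, 15.9 and 16.7 TPM in retina. Libraries did not overlap for either, and the log2 fold changes were 6.84 ± 0.32 and 2.35 ± 0.10 (SE; edgeR adjusted p = 2.2e-06 and 1.6e-06).

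Receptors of the pathway were more even. BMPR1A (ENSDARG00000019728) was at 0.58, the value of equal TPM, bmpr1ba was not called (0.25, negative on log2(TPM + 1)), and BMPR2 (ENSDARG00000020057, -0.70, and ENSDARG00000011941, -0.98), ACVR2A (-0.71) and bmpr1bb (-0.66) were called lower without being past 4-fold. The target genes went both ways. ID1, induced by BMP in many cells, stood at 532, 525 and 363 TPM in sclera with choroid and 232, 202 and 198 TPM in retina, and ID3 at 61.9, 72.7 and 61.7 TPM in sclera with choroid and 36.6, 28.9 and 34.6 TPM in retina. Both were called higher and not past 4-fold (1.74 and 1.54). ID2 (-1.26) and SMAD7 (-1.55) were called lower, and ID4 was the 1 member past 4-fold lower, at 0.88, 2.29 and 1.24 TPM in sclera with choroid and 28.6, 30.2 and 31.8 TPM in retina.

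TGF beta genes were past 4-fold higher at 17 of 30 and lower at 0, with a median of 2.86. The matricellular targets CCN2 and CCN1 stood at 192 ± 27.2 and 78.9 ± 27.6 TPM in sclera with choroid and 3.79 ± 1.101 and 2.06 ± 0.80 TPM in retina (SD, n = 3 each). The receptor gene TGFBR2 (ENSDARG00000034541) stood at 87.4, 77.6 and 71.9 TPM in sclera with choroid and 1.09, 1.48 and 1.87 TPM in retina. Neither TGFBR1 gene was called (0.52 and 0.33), and both signs turned on log2(TPM + 1). Ligands differed, with tgfb1a (5.20), tgfb5 (3.89) and TGFB2 (2.90) past 4-fold higher. TGFB3 was at 73.8, 87.2 and 75.8 TPM in sclera with choroid and 102, 87.6 and 92.1 TPM in retina, where library 12 of both tissues stood within 1 TPM. Its log2 fold change was 0.31 and called on scaled counts but -0.25 on log2(TPM + 1), so its direction depends on the scaling.

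Wnt genes were past 4-fold higher at 36 of 58 and lower at 2, with a median of 3.33. Of the ligands, WNT9B stood at 48.0 ± 5.18 TPM in sclera with choroid and 1.57 ± 0.53 TPM in retina (SD, n = 3 each), and WNT5B (6.20), WNT11 (3.52), WNT10B (5.77) and WNT4 (7.52) were past 4-fold. The secreted antagonist frzb stood at 71.6, 70.8 and 71.2 TPM in sclera with choroid and 0.73, 1.88 and 1.03 TPM in retina. SFRP1 (ENSDARG00000035521) stood at 58.2, 72.0 and 71.7 TPM in sclera with choroid and 10.8, 11.0 and 7.75 TPM in retina. Both were higher in every library of sclera with choroid than in any retina library. The beta-catenin genes CTNNB1 (1.94) and ctnnb2 (1.304) and the coreceptor LRP6 (1.21) were called below the 4-fold test. FZD5, a frizzled receptor of the retina, was past 4-fold lower at 2.34, 2.58 and 0.58 TPM in sclera with choroid and 49.1, 44.5 and 52.1 TPM in retina. The dkk1 paralogues were opposed, with dkk1a past 4-fold higher (6.23) and dkk1b past it lower (-3.22).

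Hedgehog genes were past 4-fold higher at 9 of 21 and lower at 1, against 21.1% and 14.3% of all genes. Their median was 1.40. The coreceptors GAS1 (ENSDARG00000077298) and BOC stood at 74.8 ± 3.12 and 66.9 ± 8.48 TPM in sclera with choroid and 16.3 ± 1.91 and 12.8 ± 1.65 TPM in retina (SD, n = 3 each). SMO (2.52) and the effectors GLI1 (3.07), GLI3 (3.58) and both GLI2 genes (2.90 and 2.85) were past 4-fold, and the target PTCH1 (1.33) was called without it. Ligands went both ways. SHH (ENSDARG00000068567) was past 4-fold lower, at 0.40, 0.61 and 0.57 TPM in sclera with choroid and 4.05, 4.52 and 4.06 TPM in retina. The other SHH gene (ENSDARG00000038867, -0.94) was called lower. By contrast ihha was past 4-fold higher (4.23), at means of 2.34 TPM in sclera with choroid and 0.18 TPM in retina. In RPE the SHH genes averaged 28.5 and 76.3 TPM and ihha 8.88 TPM.

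Retinoic acid genes were past 4-fold higher at 11 of 36 and lower at 3, against 21.1% and 14.3% of all genes. Their median was 0.87, where equal TPM stands near 0.57. The receptor RARG (ENSDARG00000034117) stood at 121, 135 and 117 TPM in sclera with choroid and 14.8, 13.5 and 15.1 TPM in retina. The degrading enzymes CYP26B1 (4.82) and CYP26C1 (3.32) were past 4-fold higher, while of the enzymes that make retinoic acid ALDH1A2 was at 0.75 and ALDH1A3 was not called (0.28). The 3 lower members included rbp4l and CRABP1 (ENSDARG00000045926). CYP26A1 was uneven within sclera with choroid, at 37.9, 51.3 and 87.9 TPM against 42.7, 39.7 and 35.7 TPM in retina, and its libraries overlapped.

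The list of the LDL receptor family, to which LRP2 belongs, also holds adaptor genes such as dab1b, so its counts are not for receptors alone. Of its 31 tested genes, 5 were past 4-fold higher and 6 lower, near the 21.1% and 14.3% of all genes. Of the same 31, 12 were called each way, near the 38.5% and 35.9% of all genes, with a median of 0.07 that was -0.47 on log2(TPM + 1), the shift of all genes. LRP2, the endocytic receptor megalin, stood at 0.60, 1.09 and 0.53 TPM in sclera with choroid and 20.9, 20.07 and 21.1 TPM in retina, and at 10.7 ± 0.46 TPM in RPE (SD, n = 3). The 3 retina libraries were within 1 TPM of each other and far above any library of sclera with choroid, a log2 fold change of -4.24 ± 0.25 (SE; edgeR adjusted p = 5.7e-06). Its paralogue lrp2b was near 0 in both, with 11 counts in sclera with choroid and 79 in retina. The reelin receptor LRP8 (-4.64) and its adaptors dab1b (-6.58) and DAB1 (-4.37) were past 4-fold lower as well, as were lrp11 (-2.29) and dab2 (-2.29). The 5 higher were ldlrap1a (4.44), ldlra (3.63), the Wnt coreceptor LRP5 (3.40), the endocytic adaptor DAB2 (2.42) and lrp10 (2.29). Both LRP1 genes, general scavenger receptors, were called higher without being past 4-fold (2.16 and 2.09), and CUBN, a partner of LRP2 in kidney, averaged 0.19 TPM in sclera with choroid and 0.26 TPM in retina.

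Paralogues were then read as pairs. Teleosts kept many gene duplicates from a whole-genome duplication, and their symbols often end in a and b. Of 669 such pairs by symbol, 548 had both members tested. In 170 pairs (31.0%) both were past 4-fold in the same direction, and in 17 (3.102%) 1 was past 4-fold higher and the other lower. Over all genes, 21.1% were past 4-fold higher and 14.3% lower. No rate was worked out for pairs of unrelated genes. The counts here and for shared symbols below therefore do not say whether duplicates part more or less often than other genes. In rab42, a small GTPase pair, rab42b stood at 85.4, 57.8 and 53.4 TPM in sclera with choroid and 0.52, 0.83 and 0.66 TPM in retina. rab42a stood at 0.21, 0.14 and 0.21 TPM in sclera with choroid and 42.0, 49.4 and 56.3 TPM in retina. Each was close to 0 in the other tissue, with log2 fold changes of 7.15 ± 0.34 and -7.42 ± 0.26 (SE). The lipase pair was alike: lipia stood at 37.5, 31.2 and 35.2 TPM in sclera with choroid and 0.36, 0.23 and 0.91 TPM in retina, and lipib at 0.14, 0.67 and 0.36 TPM in sclera with choroid and 41.8, 42.7 and 42.0 TPM in retina.

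Other divided pairs with both members at 5 TPM or more in their higher tissue followed. The glucose transporter slc2a3b was higher at 2.93 ± 0.25 and slc2a3a lower at -5.83 ± 0.42. For the proton-pump accessory gene, atp6ap1b was at 35.6, 34.1 and 33.97 TPM in sclera with choroid and 10.1, 7.19 and 8.93 TPM in retina. atp6ap1a was at 0.91, 3.17 and 1.76 TPM in sclera with choroid and 214, 185 and 208 TPM in retina. The glycogen-targeting pair ppp1r3c2a (8.01) and ppp1r3c2b (-3.89), the glycosylation pair c1galt1lb (3.59) and c1galt1la (-4.19), and sowahaa (9.07) and sowahab (-3.32) were divided too. So were tent5bb and tent5ba (3.94 and -3.24), inavab and inavaa (5.59 and -3.22), and the matrix gene pair paplna and paplnb (4.63 and -2.65). paplnb averaged 0.91 TPM in sclera with choroid, 302 TPM in RPE and 7.11 TPM in retina. Among pairs of identifiers that share 1 capital symbol, 26 of 1345 were divided, as in creatine kinase CKB, where ENSDARG00000069752 was at 4.64 and ENSDARG00000043257 at -5.50.

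**Figure D4:**
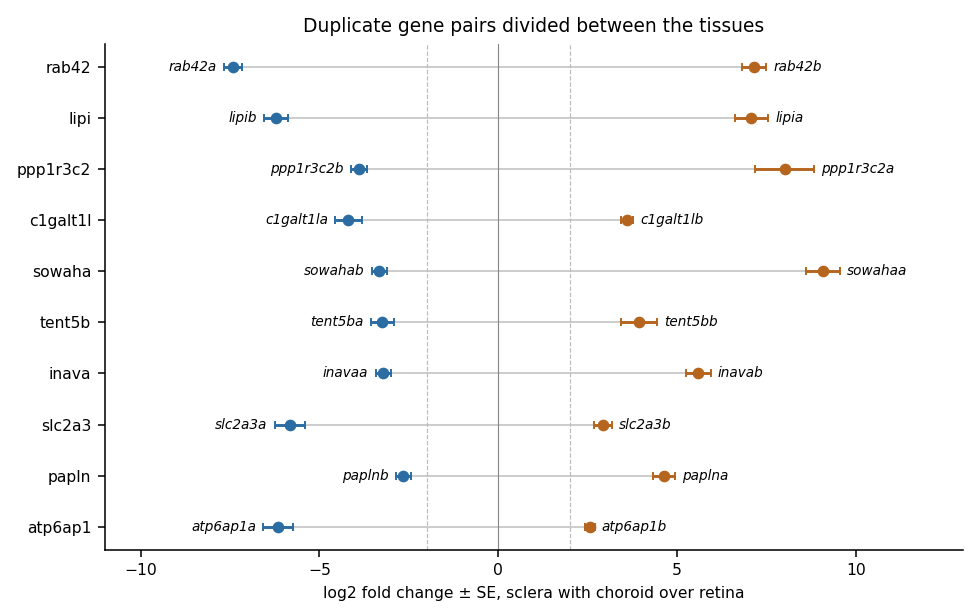
Log2 fold change ± SE, sclera with choroid over retina, of both members of 10 divided duplicate pairs; orange points are the members higher in sclera with choroid and blue points those lower, and dashed lines mark 4-fold. rab42b and rab42a stood farthest apart for their smaller change, at 7.15 and -7.42.

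The tissue difference was then read in lrp2-/- fish, in libraries that share no sample with the wild type. There 21775 genes were tested and 78.2% called, 39.9% higher and 38.3% lower, and 4455 (20.5%) were past 4-fold higher and 2849 (13.1%) lower. Of the wild-type genes, 3926 of 4647 higher (84.5%) and 2636 of 3142 lower (83.9%) were past 4-fold in the same direction in mutants, which is 88.1% and 92.5% of the mutant genes, and 0 were past 4-fold in the opposite direction. List medians in mutants were, for example, 8.86 for surface epithelium, 6.32 for fibroblast matrix, 4.93 for cartilage, -5.84 for rods and -4.70 for synapses. The lens list stood at -0.03 in mutants, where retina libraries held 588 to 675 TPM of lens RNA with no library apart. Of the 17 divided pairs, 14 were divided in mutants. A test of the difference between genotypes called 872 of 22966 genes (3.8%) and 12 of the 223 genes chosen by the naming rule. Among lists, endothelium held 9 called genes of 31 and fibroblast matrix 9 of 59. The median of endothelial genes was 2.12 in mutants and 3.53 in wild type, and the outer coat held summed levels of 461 to 556 TPM in mutants and 478 to 991 TPM in wild type.

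**Figure D5:**
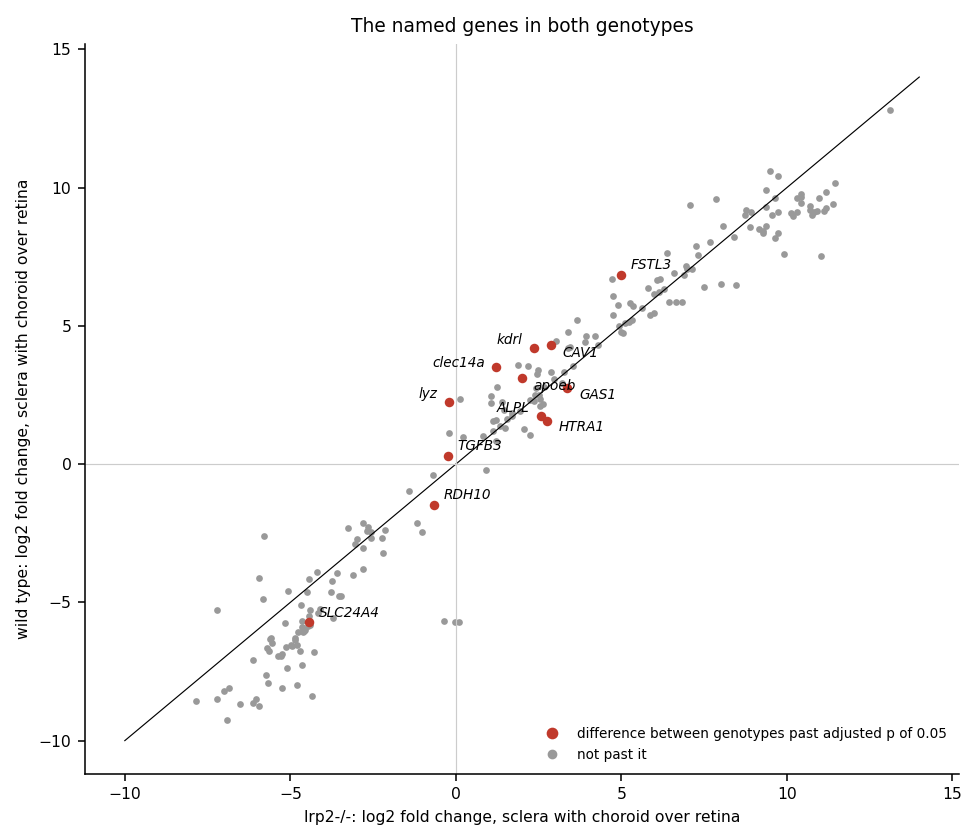
Log2 fold change of 221 named genes, sclera with choroid over retina, in lrp2-/- fish (horizontal axis) and wild type (vertical axis); the line marks equal values and red points are the 12 genes whose difference between genotypes passed an adjusted p of 0.05. Most genes lay along the line, and the 3 grey points near 0 in mutants and -5.7 in wild type are lens crystallins.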

How the data were processed

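Gene counts and TPM of the 24 RNA-seq libraries of 1 month were taken as the authors deposited them, in tables of 31916 identifiers. Bowtie2, HISAT and the GRCz10 build are named in the submitters' processing notes, with no role given; neither the counting tool nor its handling of strand is stated. The counts deposited by the authors are estimated counts with fractions, and they were rounded to whole numbers, 17819957 to 23800956 per wild-type library here, before they entered edgeR 4.0.16 (R 4.3.3): filterByExpr, TMM scaling, a robust quasi-likelihood fit of the 6 libraries with tissue as the only term, and Benjamini-Hochberg adjustment over all 22010 genes tested. Differences past 4-fold were tested with glmTreat at a log2 of 2. The difference between genotypes was an interaction contrast over 12 libraries. The deposited TPM, made by the authors, were used unchanged for levels and in limma 3.58.1. DESeq2 1.42.0 was an alternative. Intervals and the floor of 3 counts cover counting error only.

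Symbols came from a name table that matched 26108 identifiers; the other 5808 held 2.12% of counts. The comparison and the 35 lists were chosen with earlier results of these data known. Named genes were the 5 most abundant members of each list and up to 2 opposite ones, the 12 largest changes per direction, the 10 most abundant genes per tissue and 10 divided pairs; other list members were named after their values were seen. Some genes that this rule names are not reported here. The fit and its calls were tested on simulated data in which few genes changed, unlike here, so that test does not bear on the scaling.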

Additional observations from a re-analysis of the deposited data

Results flagged for a closer look

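For 12 of the 223 genes chosen by the naming rule, the difference between sclera with choroid and retina itself differed between lrp2-/- and wild-type fish. The values below are interaction effects in edgeR over 12 libraries, the log2 fold change in mutants minus that in wild type, with its adjusted p, and over all genes 872 of 22966 (3.8%) passed. No explanation was weighed.

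Of the named genes of the endothelium list, 2 passed. clec14a, an endothelial lectin, had an interaction of -2.30 (edgeR adjusted p = 0.013), with 1.23 in mutants and 3.53 in wild type. The VEGF receptor gene kdrl had -1.84 (edgeR adjusted p = 0.024), with 2.37 and 4.22. CAV1, a caveola gene on the Müller glia list, had -1.44 (edgeR adjusted p = 0.0049), with 2.86 and 4.31. Library 13 of wild-type sclera with choroid held the least endothelial RNA of its group, 478 TPM, which is within the 461 to 556 TPM of the mutant libraries.

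FSTL3, the activin and BMP antagonist, had an interaction of -1.83 (edgeR adjusted p = 0.021), with 5.00 in mutants and 6.84 in wild type. TGFB3 had -0.55 (edgeR adjusted p = 0.042), with -0.24 and 0.31, and its direction in wild type depends on the scaling. The hedgehog coreceptor GAS1 (ENSDARG00000077298) had 0.61 (edgeR adjusted p = 0.015), with 3.37 and 2.77.

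Of the named genes of the macrophage and neutrophil lists, apoeb and lyz passed. apoeb had an interaction of -1.11 (edgeR adjusted p = 0.020), with 2.00 in mutants and 3.12 in wild type, and lysozyme, lyz, had -2.44 (edgeR adjusted p = 0.044), with -0.21 and 2.24.

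For the remaining genes, the log2 fold change between tissues was higher in mutants. That alone does not mean a higher level in mutants. For example, the outer coat of mutants averaged 235 TPM of ALPL, and that of wild type 237 TPM. Mutant retina averaged 67.1 TPM of ALPL, and wild-type retina 144 TPM. The bone phosphatase ALPL had an interaction of 0.85 (edgeR adjusted p = 0.038), with 2.58 in mutants and 1.74 in wild type, and the protease HTRA1 (ENSDARG00000014907) had 1.205 (edgeR adjusted p = 0.043), with 2.75 and 1.56. The retinol dehydrogenase RDH10 (ENSDARG00000058730) had 0.80 (edgeR adjusted p = 0.030), with -0.67 and -1.46, and the exchanger SLC24A4 (ENSDARG00000015425) had 1.29 (edgeR adjusted p = 0.020), with -4.44 and -5.72.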

How the results depend on the processing

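Of the counts of called genes and pairs, 144 values under other settings were within 1.5 times the main one and 9 were not. On log2(TPM + 1) with limma, 5106 genes were past 4-fold in wild type and 2279 of them higher, and with a mean of 1 TPM 5085 and 2265; in mutants 2430 and 2411 were higher. These fits compress low values by their pseudocount. Divided pairs numbered 8 on log2(TPM + 1), 79 with no size threshold, which calls more genes, and 43 with pairs of 1 capital symbol, which adds pairs. Leaving out each library in turn gave 15589 to 16413 called genes in wild type, 8177 to 8381 higher and 7412 to 8032 lower, and 7563 to 7823 past 4-fold, 4516 to 4734 higher and 3022 to 3307 lower; in mutants 6907 to 7719 were past 4-fold, 4331 to 4589 higher and 2539 to 3130 lower, and pairs numbered 15 to 17.

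Medians of lists had the same sign and moved little in 304 values, moved in 42 and reversed in 4. Over the fits that left out 1 library, the lens median ranged between -6.25 and 0.14, the last without retina library 12. That of the LDL receptor family with its adaptors was -0.47 on log2(TPM + 1), and between -0.03198 and 0.054 in those fits, below 0 without sclera library 12 (-0.0078) and without sclera library 13. Of values for named genes, 3510 kept their call and direction, 18 of 6 genes lost the call, 27 of 7 genes gained it and 7 reversed. Leaving out 1 library, pmelb ranged between -0.42 and 0.060 (without sclera library 12), and crygm1 between -6.34 and 0.18, CRYBB1 between -6.29 and 0.14 and crybb1l2 between -6.30 and 0.15, each last value without retina library 12. The others were TGFB3 at -0.25 in the 3 fits on TPM. The cause was not tested.

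With the replicate number as a block, 15774 genes were called in wild type (8208 higher, 7566 lower), 7610 were past 4-fold (4535 and 3075), 7112 in mutants (4369 and 2743), and 17 pairs were divided. Deviations of same-numbered libraries correlated at 0.045, 0.025 and 0.11 in wild type and at 0.11, 0.068 and 0.063 in mutants. In both genotypes each library correlated best with its own number. No label says what a number marks, so the main fit did not pair the libraries. Whether the numbers pair them was not settled. With 3 libraries a group at these depths, genes of a few counts were mostly removed by the filter and are not called absent.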

Other observations

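Gene families were also taken by symbol, after the lists had been read, and are given with no test of their own. They overlap the lists: 42 of the 55 collagen and 14 of the 20 keratin genes tested also stand in a list, so those counts restate list counts in part. Of 55 collagen genes, 45 were past 4-fold higher in sclera with choroid and 0 lower, with a median log2 fold change of 5.24 and summed levels of 16655 ± 2350 TPM in sclera with choroid and 372 ± 24.2 TPM in retina (SD, n = 3 each). Of 20 keratin genes, which form the filaments of epithelia, 18 were higher and 0 lower past 4-fold, with a median of 9.11 and sums of 100731 ± 9351 TPM in sclera with choroid and 328 ± 181 TPM in retina. Annexins, which bind membranes in the presence of calcium, were higher at 12 of 16 and lower at 0 (median 4.82), and Krüppel-like transcription factors higher at 11 of 21 and lower at 0 (median 3.33). Interleukin receptors were higher at 13 of 23 and lower at 0 (median 2.94). Over all genes, 21.1% were past 4-fold higher and 14.3% lower.

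GABA receptor subunits were past 4-fold lower at 23 of 24 genes, with a median of -6.56 and sums of 19.8 ± 7.27 TPM in sclera with choroid and 943 ± 102 TPM in retina (SD, n = 3 each). Ionotropic glutamate receptor subunits were lower at 22 of 29 (median -4.90), voltage-gated potassium channels lower at 36 of 48 and higher at 3 (median -4.31), and calcium channel subunits lower at 33 of 47 and higher at 2 (median -4.67). Protocadherins, adhesion proteins of neurons, were lower at 41 of 57 and higher at 2 (median -3.69). Ribosomal protein genes were called higher at 82 of 83 and lower at 1, of which 13 and 1 were past 4-fold, and summed to 182741 ± 6310 TPM in sclera with choroid and 62438 ± 4351 TPM in retina (SD, n = 3 each). The medians of proteasome subunits (0.14), septins (0.23) and aquaporins (0.63) turned negative on log2(TPM + 1), at -0.45, -0.37 and -0.11.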
